A study of Mus musculus with 16 samples.

Results

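Long-chain fatty acids reach the mitochondrial matrix of the liver through the carnitine shuttle and are then shortened by beta-oxidation. Here 9 genes of these steps were described in liver RNA of progeroid mice on 4 diets: Cpt1a, Slc25a20 and Cpt2 of the shuttle, the acyl-CoA dehydrogenases Acadvl, Acadl and Acadm, Hadha and Hadhb of the trifunctional protein, and Etfdh. They were chosen by symbol for their place in the pathway, with earlier results of these data known. They make up 9 of the 54752 genes counted. None of the 9 is an enzyme of ketone body synthesis.

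Bulk RNA was sequenced from snap-frozen liver of 16 male mice aged 11 weeks with the genotype Ercc1 d/-, F1 hybrids labelled C57BL6J/FVBN, and 4 animals were on each diet. The product of Ercc1 is part of a DNA repair endonuclease, and its deficiency in the whole animal shortens life. Every animal was raised on the AIN93G diet until 8 weeks of age, and diets were offered freely. The high-protein diet held about 194% of the standard protein and 70% of the carbohydrate. The low-protein diet held 70% of the protein and about 112% of the carbohydrate, and the low-fat diet 70% of the fat and about 112% of the carbohydrate. Control animals stayed on AIN93G, and the altered diets were adjusted to equal energy. All 4 groups share the repair defect and no normal mice were used here, so the comparisons are between diets in 1 genotype. The labels do not say how animals shared litters or cages, and p-values therefore measure the spread between these samples.

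Carnitine palmitoyltransferase 1a on the outer mitochondrial membrane joins a long-chain acyl group to carnitine and is the step that malonyl-CoA inhibits in liver. The carrier Slc25a20 exchanges the acylcarnitine across the inner membrane, and Cpt2 turns it back into acyl-CoA. Each round of beta-oxidation begins with a dehydrogenase that hands its electrons through the electron transfer flavoprotein and Etfdh to ubiquinone, and the liver converts much of the acetyl-CoA made during fasting into ketone bodies. Transcription of many of these genes is known to be under the nuclear receptor PPAR-alpha, which fatty acids activate.

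The promoters of the shuttle genes and of the gene pair Hadha and Hadhb are shown because the results below turn on these genes. They are the bases before the RefSeq start (GRCm38.p6), 5′ to 3′ on the gene's strand, without any base that lies inside the gene of the deposited table. Capitals mark matches on either strand to the nuclear receptor half-site AGGTCA and to the GC box GGGCGG, which do not overlap here. The Cpt1a stretch is chr19:3323051-3323300 on the plus strand, with 1 half-site and 2 GC boxes:
Cpt1a: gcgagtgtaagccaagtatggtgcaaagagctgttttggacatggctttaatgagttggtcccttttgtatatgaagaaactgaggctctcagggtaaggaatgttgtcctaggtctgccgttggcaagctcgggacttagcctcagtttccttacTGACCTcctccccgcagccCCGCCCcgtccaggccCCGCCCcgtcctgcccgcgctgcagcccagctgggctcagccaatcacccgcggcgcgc
The Cpt2 stretch is chr4:107923611-107923839 on the minus strand, with 2 GC boxes:
Cpt2: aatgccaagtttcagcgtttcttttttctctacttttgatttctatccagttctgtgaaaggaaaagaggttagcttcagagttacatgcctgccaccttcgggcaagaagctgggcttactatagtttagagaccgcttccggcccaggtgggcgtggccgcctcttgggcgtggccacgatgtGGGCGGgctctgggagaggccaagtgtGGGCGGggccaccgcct
The Slc25a20 stretch is chr9:108661886-108662087 on the plus strand, with 2 GC boxes:
Slc25a20: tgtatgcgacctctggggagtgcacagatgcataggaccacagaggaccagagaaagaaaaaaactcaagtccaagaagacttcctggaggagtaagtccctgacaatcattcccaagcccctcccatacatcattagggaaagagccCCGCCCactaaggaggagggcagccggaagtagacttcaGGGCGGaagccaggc
Hadha and Hadhb run in opposite directions from neighbouring starts, with their 5′ ends 86 bases apart in the deposited table, and 68 bases between them are printed for the plus strand, chr5:30155163-30155230, with 1 GC box:
Hadha and Hadhb: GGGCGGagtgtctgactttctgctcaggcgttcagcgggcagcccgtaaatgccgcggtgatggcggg

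All 9 genes matched a RefSeq window of 250 bases before and 50 bases after the start. The half-site AGGTCA was found in the windows of Cpt1a, Acadm and Acadvl, 3 of 9, against 16.3% of all 32851 windows of that length. In Cpt1a it lay 94 to 89 bases before the start. The full repeat AGGTCANAGGTCA, the form bound by PPAR-alpha with its partner receptor, was in 0 of 9 windows and in 0.0396% of all windows. The GC box was found in 7 of 9 windows, those of Acadm and Acadvl being without it, against 35.7% of all windows. The Hadha match lies at the same bases as a match of Hadhb, so a shared site counts for both genes. A missing match says only that these letters are not in the window.

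All 9 genes were strongly represented in these livers. Per length, as depth-scaled counts per kilobase of exon (FPKM) over the 16 libraries, the highest mean levels were 106 FPKM for Cpt1a and 105 FPKM for Acadl, followed by 95.8 FPKM for Acadvl and 89.3 FPKM for Acadm. Cpt2 had a mean level of 57.6 FPKM, and the lowest level was that of Slc25a20, at 18.9 FPKM, still above 88.8% of the 17833 genes tested. Hadha, Hadhb and Etfdh lay between, at 40.5, 33.9 and 30.6 FPKM. The smallest read count of any of them was 2518 reads, for Slc25a20, a counting error of 1.99%, so depth limited none of these values. All other levels below are in CPM, depth-scaled counts with TMM factors. Fold changes are from edgeR's quasi-likelihood fit of all 16 libraries. The order of genes by FPKM depends on the exon lengths used, such as 2005 bases for Acadl and 8730 bases for Hadha. By CPM Hadha stood above Acadl, at means of 315.2 and 192.1 CPM in control.

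Cpt1a (chr19:3323301-3385732, plus strand, GRCm38) had its highest mean level with high protein and its lowest with low fat. The high-protein livers held 527.0, 495.0, 526.8 and 659.2 CPM of Cpt1a, and the low-protein livers held 400.3, 470.8, 434.8 and 522.5 CPM. The low-fat livers held 403.3, 426.4, 363.8 and 381.0 CPM, and the controls 364.8, 393.7, 382.7 and 565.3 CPM. Every high-protein liver was above every low-fat liver and above 3 of the 4 controls, while control 4 lay within the high-protein range. Cpt1a averaged 552 ± 73.05 CPM with high protein and 427 ± 93.2 CPM in control (SD, n = 4 each), a log2 fold change of 0.37 (SE 0.15, unadjusted p = 0.024), and edgeR's test with Benjamini-Hochberg adjustment gave an adjusted p of 0.762. Without control 4 the log2 fold change of Cpt1a was 0.53, and without high protein 4 it was 0.29. Against low fat the high-protein difference of Cpt1a was 0.49 on the log2 scale (SE 0.15, unadjusted p = 0.005, adjusted p = 0.418 in edgeR). Low protein differed from control by 0.10 and low fat by -0.12 on the log2 scale, both smaller than their SE of 0.15, and the low-fat value was 0.02 without control 4.

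Slc25a20 (chr9:108662088-108684641, plus strand), the carnitine-acylcarnitine carrier, had the largest high-protein difference of the 9. Its levels were 92.6, 98.2, 131.6 and 136.4 CPM in high-protein livers and 73.1, 73.0, 64.1 and 83.8 CPM in controls. Every high-protein liver lay above every control, and high protein 3 and 4 stood well above high protein 1 and 2. The log2 fold change of Slc25a20 was 0.64 (SE 0.14, unadjusted p = 0.0005), and in edgeR's quasi-likelihood test with Benjamini-Hochberg adjustment over all genes it did not pass, at 0.762. It ran from 0.56 to 0.73 over the fits that left out 1 library. Low-protein livers held 95.7, 101.9, 78.4 and 93.8 CPM of Slc25a20, and low-fat livers 87.4, 94.3, 74.2 and 82.5 CPM. Both ranges overlapped the controls through control 4, with log2 differences of 0.33 (SE 0.14) for low protein and 0.20 (SE 0.14) for low fat. High protein exceeded low protein by 0.31 and low fat by 0.44 on the log2 scale (SE 0.14 each), with overlapping libraries in both.

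Cpt2 (chr4:107903981-107923610, minus strand), the matrix-side transferase, was the gene whose controls stood below all 3 altered diets. It was at 138.5, 133.1, 173.0 and 170.7 CPM on high protein, at 155.6, 154.2, 130.5 and 146.4 CPM on low protein and at 148.0, 148.6, 132.4 and 137.5 CPM on low fat. The controls held 125.0, 116.8, 113.4 and 78.7 CPM of Cpt2. No library of an altered diet overlapped a control, and the altered diets overlapped one another. The log2 fold change of Cpt2 against control was 0.50 on high protein, 0.44 on low protein and 0.38 on low fat, with an SE of 0.14 in each. These comparisons share their controls, and none passed edgeR's test with Benjamini-Hochberg adjustment, at 0.762, 0.682 and 0.530. Control 4 was the lowest library for Cpt2, and without it the log2 fold changes were 0.37 on high protein, 0.29 on low protein and 0.23 on low fat.

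**Figure D1:**
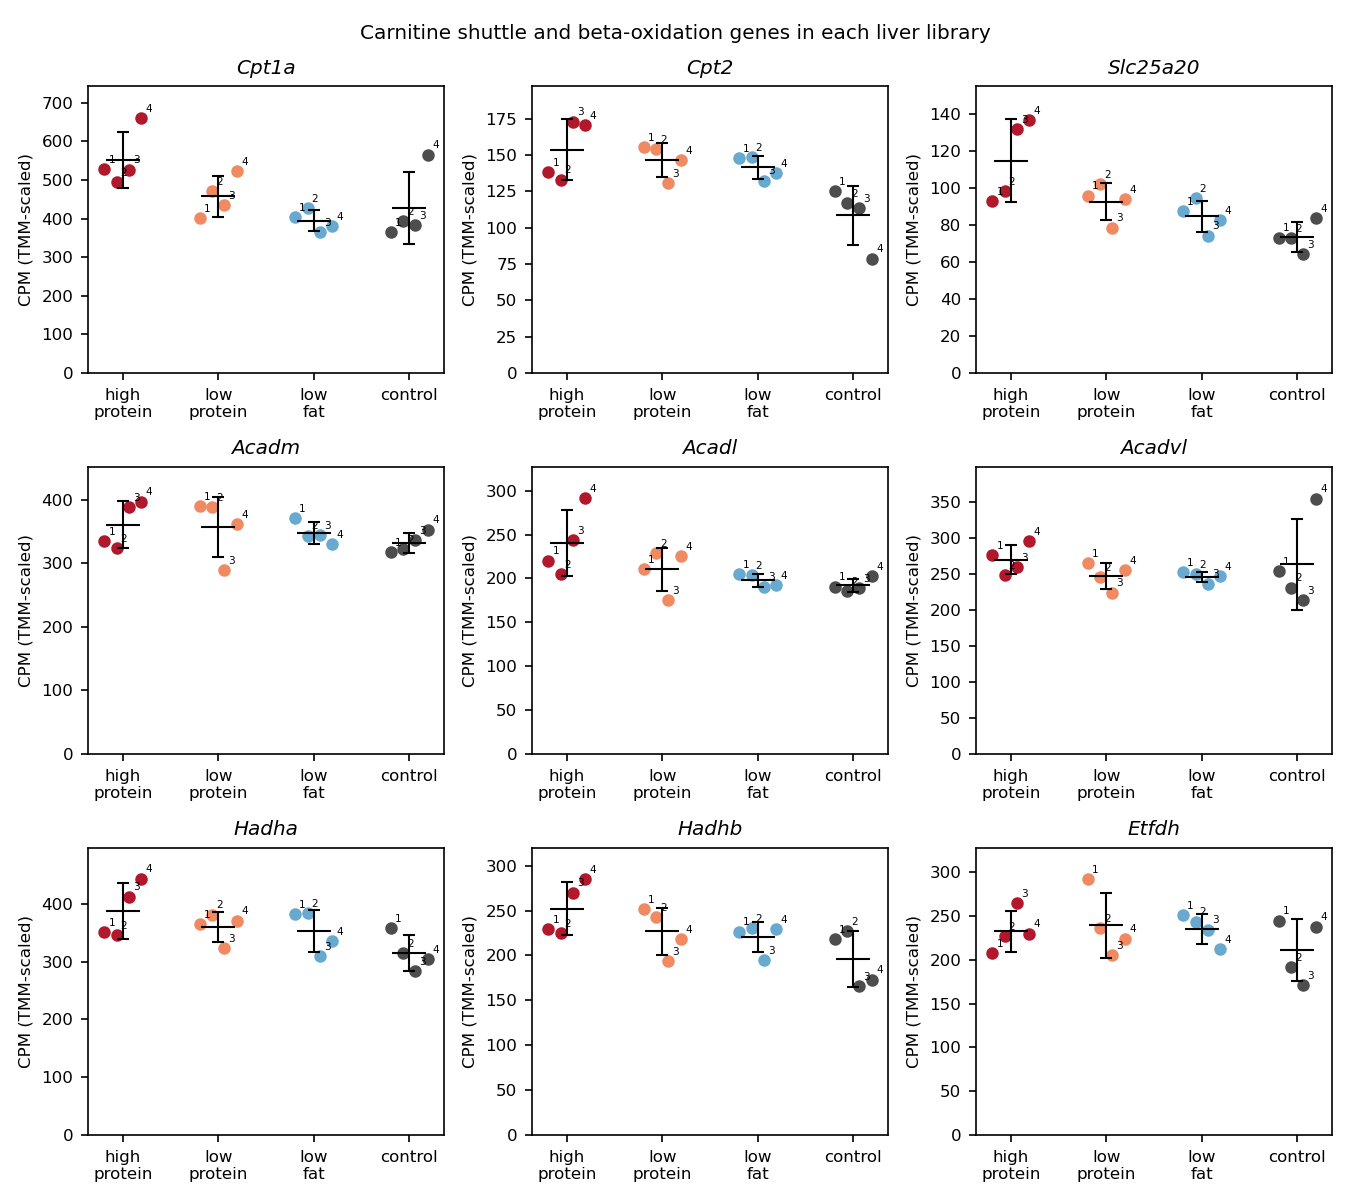
Level of each of the 9 genes in every liver library, in CPM scaled by TMM factors, on a linear axis from 0. Points are libraries with their replicate number, and bars give the group mean with its SD (n = 4). Cpt2 shows every altered diet above the controls, Slc25a20 shows high protein above the controls, and control 4 stands apart in Cpt1a, Cpt2 and Acadvl.

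The acyl-CoA dehydrogenases differed from each other. Acadl (chr1:66830839-66863277, minus strand), the long-chain enzyme, held 220.3, 204.9, 243.2 and 291.4 CPM in high-protein livers and 190.7, 185.9, 189.0 and 202.7 CPM in controls. The lowest high-protein liver lay just above the highest control, so the groups did not overlap. In the fit Acadl differed by 0.32 on the log2 scale (SE 0.12, unadjusted p = 0.017, adjusted p = 0.762 in edgeR), and 0.22 without high protein 4. Acadl averaged 210.4 ± 24.4 CPM on low protein and 198 ± 7.36 CPM on low fat, against 192 ± 7.37 CPM in control (SD, n = 4 each), and both groups overlapped the controls.

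Acadm (chr3:153922357-153944632, minus strand), the medium-chain enzyme, held 334.2, 323.6, 388.4 and 396.7 CPM with high protein against 317.1, 322.0, 335.7 and 352.9 CPM in control. The groups overlapped, and its log2 fold change of 0.12 was about as large as its SE of 0.12. Across the 16 libraries Acadm varied least of the 9 genes, with a standard deviation of 0.129 log2 units, while Slc25a20 varied most, at 0.293. Without control 4 Acadvl varied least, at 0.115, against 0.134 for Acadm. Low protein and low fat differed from control in Acadm by 0.11 and 0.06 on the log2 scale, again with overlapping libraries.

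Acadvl (chr11:70010183-70015411, minus strand), the very-long-chain enzyme bound to the inner membrane, showed the smallest high-protein difference. High-protein livers held 276.5, 249.1, 260.1 and 296.0 CPM of Acadvl, and the controls held 254.7, 231.4, 214.6 and 355.3 CPM. Control 4 was the highest of all 16 libraries, control 1 lay within the high-protein range and controls 2 and 3 lay below it. Acadvl differed by 0.03 on the log2 scale (SE 0.14) with all libraries and 0.20 without control 4. Low protein and low fat were at -0.09 and -0.10 against control, and without control 4 at 0.07 and 0.05. Exons of Acadvl overlap those of Dvl2 on the opposite strand, which had 159 to 473 counts per library against at least 8257 for Acadvl. The strand setting of the counting is not given in the sources used here, and reads of the overlap cannot then be assigned between them.

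Hadha (chr5:30118304-30155162, minus strand) and Hadhb (chr5:30155248-30184593, plus strand) encode the alpha and beta subunits of the trifunctional protein, which carries out the last 3 steps of a round on long chains. Hadha was at 350.2, 345.2, 412.3 and 443.2 CPM in high-protein livers and at 358.2, 315.0, 283.9 and 303.7 CPM in controls. Hadhb was at 229.1, 224.6, 270.0 and 284.6 CPM with high protein and at 218.0, 226.9, 165.5 and 173.0 CPM in control. In both genes high protein 3 and 4 were above every control, while 1 control reached into the lower high-protein libraries. The log2 fold changes were 0.30 (SE 0.12) for Hadha and 0.36 (SE 0.14) for Hadhb, with unadjusted p-values of 0.026 and 0.016 and an adjusted p of 0.762 for each in edgeR. With low protein Hadha differed from control by 0.19 and Hadhb by 0.21 on the log2 scale, and with low fat by 0.16 and 0.17, with overlapping libraries throughout.

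The subunit genes kept a narrow ratio. Over the 16 libraries the log2 ratio of Hadha to Hadhb had a standard deviation of 0.0961, the smallest of the 36 pairs among the 9 genes, whose median was 0.192. Without control 4 it was 0.0909, above the 0.0766 of Cpt2 to Hadha. On the linear scale the ratio of their CPM was 1.53 to 1.56 in high-protein livers, 1.45 to 1.70 in low-protein livers, 1.47 to 1.69 in low-fat livers and 1.39 to 1.76 in controls. All 4 groups overlapped in it.

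Etfdh (chr3:79603788-79629500, minus strand), the ubiquinone oxidoreductase that takes electrons from the flavoprotein, did not separate the diets. It was at 207.8, 227.6, 264.8 and 230.0 CPM on high protein, 292.1, 236.1, 205.7 and 224.5 CPM on low protein and 251.5, 243.7, 234.6 and 212.2 CPM on low fat. The controls held 245.1, 191.5, 171.6 and 238.0 CPM of Etfdh. Every group overlapped every other, and low protein 1 was the highest library. The log2 differences from control were 0.14 on high protein, 0.18 on low protein and 0.15 on low fat, each with an SE of 0.14. Exons of Etfdh overlap those of 4930579G24Rik on the opposite strand, a gene with 8 to 77 counts per library against at least 6836 for Etfdh.

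Over the 9 genes together, 9 were above control on high protein, 8 on low protein and 7 on low fat. The median log2 fold change of the 9 was 0.32, 0.18 and 0.15 in these comparisons, beside -0.06, -0.03 and -0.02 over all 17833 genes tested. Of all genes tested, 41.7%, 45.6% and 47.6% had a fitted log2 fold change above 0. No gene of the 9, and 0% of all genes, passed an adjusted p of 0.05 in edgeR's quasi-likelihood test in any of the 6 comparisons of diets. At an unadjusted p under 0.05, 6 of the 9 were counted with high protein, all higher, beside 6.22% of all genes and 2.48% that were higher. With low protein it was 2 of 9 beside 7.08% (2.35% higher), and with low fat 1 of 9 beside 9.22% (3.09% higher). The 6 with high protein became 2 without high protein 4 (4.14% of all genes), 4 without control 3 (11.4%), 7 without control 4 (8.79%) and 2 with only the groups compared (2.04%). Without control 4 all 9 were above control on each altered diet, at medians of 0.30 on high protein, 0.16 on low protein and 0.08 on low fat, and the 1 with low fat became 0 (5.57%). DESeq2 called 1, 10 and 4 genes at an adjusted p under 0.05 in the comparisons of high protein, low protein and low fat with control, none of them among the 9. Without control 3, edgeR called 109 genes between low fat and control, and again none was among the 9. In edgeR's test of any difference among the 4 diets, Slc25a20 (unadjusted p = 0.0033), Cpt2 (unadjusted p = 0.014) and Cpt1a (unadjusted p = 0.027) were under 0.05, beside 6.59% of all genes, with adjusted p-values of 0.695 or more. The libraries of high protein lay wholly above the controls in 3 of 9 (Cpt2, Slc25a20 and Acadl) beside 1.12% of all genes, those of low protein in Cpt2 alone beside 1.61%, and those of low fat in Cpt2 alone beside 1.27%.

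Compared with the other altered diets, high protein was again mostly above. It exceeded low protein in 8 of 9 genes (47.5% of all genes), with a median log2 difference of 0.13 beside -0.02 over all genes. Slc25a20 alone had an unadjusted p under 0.05, which 5.17% of all genes had and 2.34% in that direction. None of the 9 was without overlap there, beside 3.15% of all genes that lay wholly above. High protein exceeded low fat in 8 of 9 (47% of all genes), with a median of 0.14 beside -0.02, and Cpt1a, Slc25a20 and Acadl had an unadjusted p under 0.05 (9.08% of all genes, 4.67% higher). Of these, Cpt1a and Acadl had no overlap with low fat, which 4.23% of all genes shared in that direction. Etfdh was the exception in both, at -0.04 against low protein and -0.02 against low fat. Low fat lay below low protein in 9 of 9 genes, by 0.01 to 0.22 on the log2 scale, while 50.4% of all genes lay above. The libraries overlapped in each, beside 2.14% of all genes wholly below, and 0 of 9 had an unadjusted p under 0.05 (2.38% of all genes). The count was 5 of 9 without low protein 1. The largest of these low-fat differences was -0.22 for Cpt1a. DESeq2 called 25 genes between high and low protein, 81 between high protein and low fat and 0 between low fat and low protein, again none of the 9. In order of mean level, 6 of the 9 genes ran from high protein through low protein and low fat down to control, and of all neighbours in the order of any of the 9 genes, those without overlap were low fat and control in Cpt2.

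**Figure D2:**
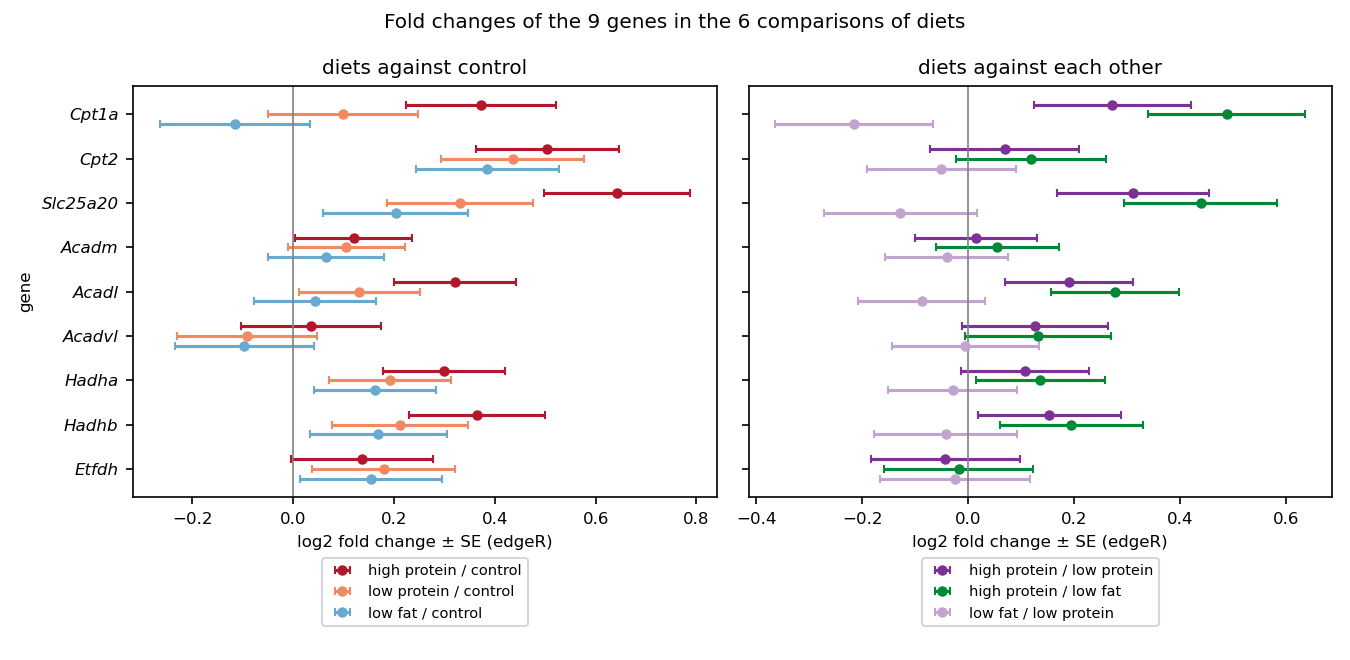
Log2 fold change of each of the 9 genes from the edgeR fit, with its SE, for the 3 altered diets against control on the left and for the diets against each other on the right. High protein against control runs from 0.03 for Acadvl to 0.64 for Slc25a20, and none of the values passed the adjusted test.

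The spread within a diet was partly shared by the genes. The mean of the 9 genes' log2 levels, each centred on its own mean over the libraries, was 0.04, 0.01, 0.25 and 0.34 in high-protein livers and -0.10, -0.17, -0.28 and -0.07 in controls. It was 0.11, 0.11, -0.16 and 0.07 on low protein and 0.03, 0.04, -0.13 and -0.08 on low fat. High protein 3 and 4 were the highest libraries of the 16, high protein 1 and 2 lay within the range of low protein, and control 3 was the lowest. Control 4 had a mean near the other controls but its genes were split, from -0.78 for Cpt2 to 0.48 for Acadvl. Its range over the 9 genes was 1.26 log2 units, against 0.21 to 0.60 in the other 15 libraries. The CPM ratio of Cpt1a to Cpt2 was 3.05 to 3.86 on high protein, 2.57 to 3.57 on low protein, 2.72 to 2.87 on low fat and 2.92 to 3.38 in controls 1 to 3. In control 4 it was 7.18.

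**Figure D3:**
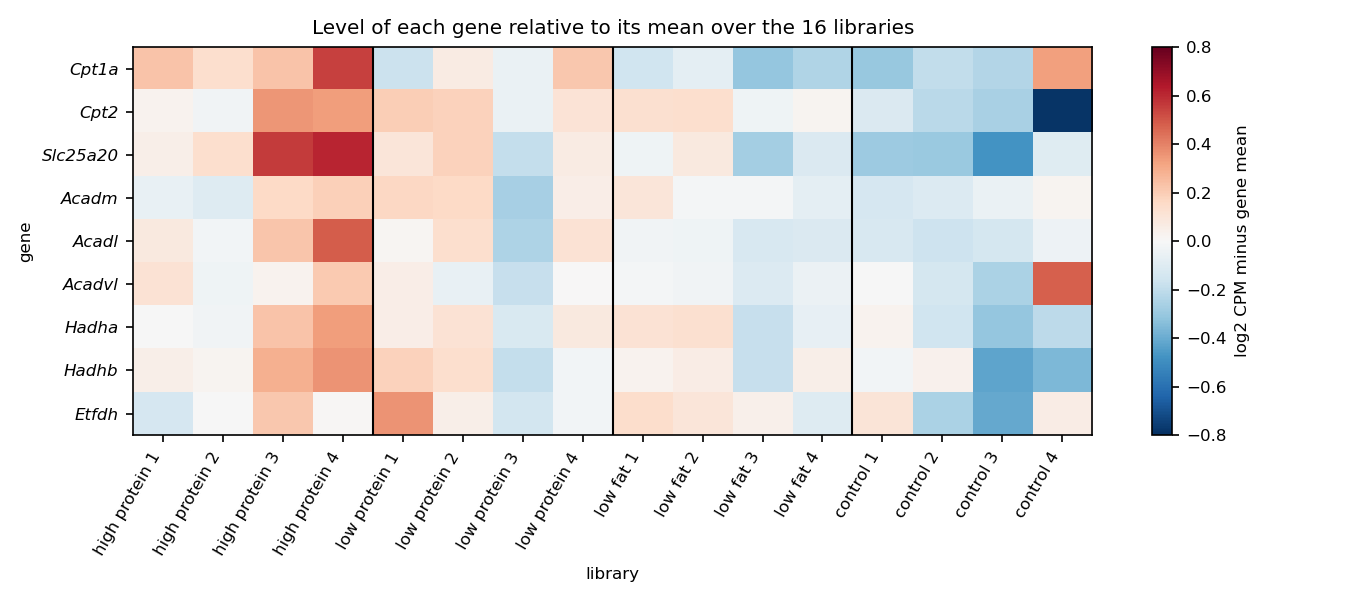
Log2 CPM of each of the 9 genes minus its mean over the 16 libraries, with 1 column per liver library and lines between the diets. High protein 3 and 4 are above 0 in all 9 genes, and control 4 combines the lowest Cpt2, at -0.78, with the highest Acadvl, at 0.48.

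The libraries differed in depth and in marker genes of other cells. Totals ran from 35243594 to 112789127 counts. The liver marker Alb was at 47750 CPM or more in every library. The summed level of 20 kidney genes was 1.55 to 1532 CPM on high protein, 656 to 1238 CPM on low protein, 1027 to 2930 CPM on low fat and 92.0 to 4529 CPM in control, where control 3 was the highest, and Umod and Kap were at 0 in at least 1 library. With that level as a covariate, the high-protein differences of the 9 genes from control were 0.02 to 0.65 on the log2 scale, against 0.03 to 0.64 without it. Markers of periportal hepatocytes (8 genes), the cells next to the incoming blood, summed to 9908 to 14950 CPM on high protein, 5473 to 7396 CPM on low protein, 5907 to 8184 CPM on low fat and 6925 to 8526 CPM in controls 1 to 3. Control 4 held 30630 CPM of them. Among these genes Pck1 ran from 1308 to 16340 CPM and Ass1 from 1910 to 9956 CPM, while Cyp2f2 ran from 426.7 to 820.1 CPM. Markers of pericentral hepatocytes, those away from the incoming blood, summed to 8047 to 10370 CPM on high protein and 6403 to 8248 CPM on low protein. Their sum was 5643 to 6246 CPM on low fat and 5618 to 11590 CPM in control. The part of either set in the results was not tested. The 7 muscle and heart genes summed to at most 0.215 CPM. Of the brown fat genes, Ucp1, Cidea and Cox8b reached at most 0.0251, 0.185 and 0.0581 CPM, while Elovl3 ran from 0.921 to 252.4 CPM. In bulk RNA, fewer cells of a type and less RNA per cell cannot be told apart.

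The other genes of mitochondrial beta-oxidation lay mostly above control, with low fat only when control 4 was included. With high protein, 15 of the 16 listed were above control, with a median log2 fold change of 0.27. The count was 14 of 16 with low protein, at a median of 0.14, and 12 of 16 with low fat, at a median of 0.08. Without control 4 the counts were 15, 11 and 7 of 16, at medians of 0.19, 0.05 and -0.04. None passed an adjusted p of 0.05 in edgeR. Eci1, an isomerase for unsaturated chains, was at 85.8, 93.9, 124 and 122.9 CPM in high-protein livers and at 79.5, 83.3, 68.6 and 60.3 CPM in controls. These groups did not overlap, although high protein 1 was close to control 2. The log2 fold change of Eci1 was 0.55 (SE 0.15), and it was 0.39 on low protein and 0.32 on low fat (SE 0.15 each). In the same order of diets, Eci1 was at 0.46, 0.29 and 0.21 without control 4. Eci2, a second isomerase, averaged 330.0 ± 69.2 CPM with high protein and 223 ± 39.5 CPM in control (SD, n = 4 each), with overlap, a log2 fold change of 0.57 (SE 0.20). Decr1, the dienoyl-CoA reductase of polyunsaturated chains, was at 153.0, 165.8, 178.3 and 202.0 CPM with high protein against 147.6, 149.9, 140.2 and 67.2 CPM in control, without overlap. Its log2 fold change was 0.47 (SE 0.20) with high protein, and 0.25 without control 4. Hsd17b10, a short-chain dehydrogenase, was at 0.15 (SE 0.16) against control and at 0.45 (SE 0.16) against low fat, where the libraries just failed to overlap. The lowest high-protein library held 149.9 CPM of Hsd17b10 and the highest low-fat library 148.9 CPM.

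Upstream of the shuttle the list of fatty acid activation and uptake was divided. With high protein 5 of its 11 genes were above control and 6 below, with a median of -0.02, and with low protein and low fat it was 7 and 8 above, with medians of 0.10 and 0.09. Without control 4 the counts were 4, 4 and 5 of 11, at medians of -0.10, -0.04 and -0.13. Acsl4, an acyl-CoA synthetase that prefers arachidonate, was at 59.2, 46.1, 66.7 and 66.5 CPM with low protein against 86.3, 119.4, 78.7 and 184.1 CPM in control. Low-protein livers were below all controls, and control 4 was the highest library. The log2 fold change of Acsl4 was -0.97 (SE 0.25) with low protein, -0.67 (SE 0.25) with low fat and -0.29 (SE 0.25) with high protein, and without control 4 the values were -0.69, -0.40 and 0.01. Acsl3, an acyl-CoA synthetase of the endoplasmic reticulum and lipid droplets, was at -0.51 (SE 0.24) with high protein and Slc27a5, the bile acid and very-long-chain acyl-CoA synthetase of liver, at -0.02 (SE 0.16).

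Of the other carnitine genes 4 of 5 were above control with each altered diet, at medians of 0.05 on high protein, 0.11 on low protein and 0.15 on low fat, and of 0.47, 0.57 and 0.70 without control 4. Crot, the peroxisomal carnitine octanoyltransferase, had the largest values of the list. It was at 577, 775, 893 and 428 CPM on high protein, 1249, 905, 790 and 887 CPM on low protein and 1679, 1732, 871 and 498 CPM on low fat. The controls held 815, 376, 299 and 197 CPM of Crot, and control 1 overlapped all 3 diets. In the edgeR fit it was 1.58-fold control on high protein, 2.27-fold on low protein and 2.83-fold on low fat, with an SE of 0.42 to 0.43 on the log2 scale. The high-protein log2 fold change of Crot was 0.66, and it was 1.20 without control 1 and 0.42 without control 4. With low protein it was 1.18, 1.71 without control 1 and 0.93 without control 4, and with low fat 2.02 without control 1 and 1.24 without control 4. The carnitine importer Slc22a5 was at 0.42 (SE 0.38) with high protein, and Cpt1c, a brain form of the transferase, at -0.39 (SE 0.37) from a level of 0.711 CPM with high protein against 0.924 CPM in control.

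Among genes of ketone metabolism, Bdh1 and Slc16a6 are given singly. Bdh1, which turns acetoacetate into beta-hydroxybutyrate, was at 377.7, 352.5, 357.8 and 401.4 CPM with high protein against 343.6, 341.0, 297.6 and 30.8 CPM in control. The high-protein livers were above all controls, and control 4 was far below the other controls. Bdh1 had a log2 fold change of 0.56 (SE 0.44) on high protein and 0.73 (SE 0.44) on low protein, and without control 4 it was 0.18 and 0.34. Slc16a6, a monocarboxylate transporter that exports ketone bodies in zebrafish, was at 3.79 ± 1.27 CPM with high protein and 6.61 ± 3.14 CPM in control (SD, n = 4 each), a log2 fold change of -0.80 (SE 0.32) that was -0.45 without control 4.

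Of the 3 listed genes that set malonyl-CoA, the inhibitor of Cpt1a, Acacb and Acaca had lower mean levels on high protein than in control. Acacb, whose acetyl-CoA carboxylase sits on the outer mitochondrial membrane beside Cpt1a, was at 21.0, 22.2, 19.5 and 22.3 CPM in high-protein livers, 17.9, 18.5, 49.3 and 101.0 CPM in low-protein livers and 58.3, 70.6, 44.8 and 59.6 CPM in low-fat livers. The controls held 73.8, 33.9, 83.0 and 87.2 CPM of Acacb. High-protein livers were tightly grouped below all controls and all low-fat livers, while low protein was split, with replicates 1 and 2 at the high-protein level replicate 3 in the control range and replicate 4 above every control. Fitted, the log2 fold change of Acacb was -1.71 (SE 0.45) against control and -1.46 (SE 0.45) against low fat, with adjusted p-values of 0.762 and 0.418 in edgeR. With low protein and low fat it was -0.57 and -0.25 against control (SE 0.44 each).

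Acaca, the cytosolic carboxylase of fatty acid synthesis, was at 85.4, 71.1, 57.8 and 52.7 CPM with high protein and at 193.5, 129.4, 140.7 and 28.8 CPM in control. Control 4 was below every high-protein liver, and the other controls were above them. Acaca had a log2 fold change of -0.88 (SE 0.38), and -1.22 without control 4. Mlycd, which breaks malonyl-CoA down, was at 125 ± 8.26 CPM with high protein and 112 ± 42.5 CPM in control (SD, n = 4 each). Its log2 fold change was 0.15 (SE 0.20), 0.44 without control 4 and 0.05 without control 1.

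Cpt1a was also set against Acacb in the same library. The CPM ratio of Cpt1a to Acacb was 25.1, 22.2, 26.9 and 29.5 in high-protein livers, 22.3, 25.4, 8.81 and 5.17 in low-protein livers and 6.91, 6.03, 8.12 and 6.39 in low-fat livers. In controls it was 4.94, 11.6, 4.61 and 6.48. High-protein livers lay above all low-fat livers and all controls, low protein 1 and 2 lay within the high-protein range, and low protein 3 and 4 lay within the range of the controls. This pair was chosen for its place in the pathway with the values of both genes known, so the ratio is a description.

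**Figure D4:**
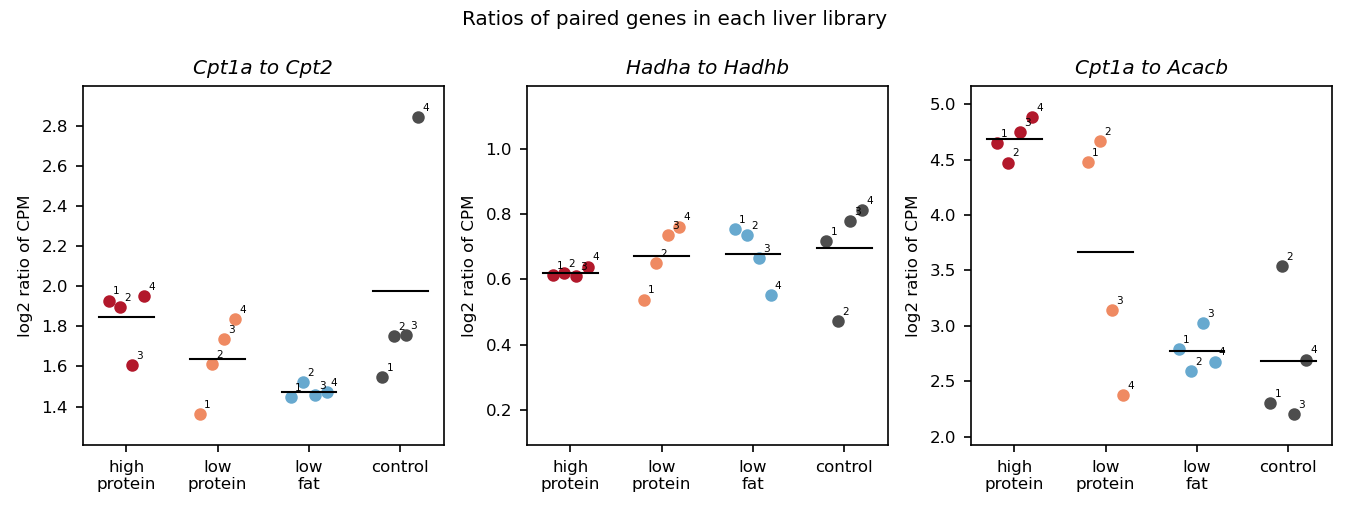
Log2 ratio of CPM in each library for Cpt1a to Cpt2, Hadha to Hadhb and Cpt1a to Acacb, with points numbered by replicate and lines at the group means. Control 4 stands apart in the first ratio, and the second is tightest on high protein, with all groups overlapping. In the third, low protein 1 and 2 lie with high protein and low protein 3 and 4 with control.

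Among 12 regulators, 8 were above control on high protein, 7 on low protein and 5 on low fat, with medians of 0.07, 0.02 and -0.11. Without control 4 the counts were 10, 8 and 3 of 12, at medians of 0.34, 0.06 and -0.18. Ppara, the receptor itself, was at 110.2, 120.3, 112.7 and 98.5 CPM on high protein, 117.3, 107.7, 140.5 and 125.4 CPM on low protein and 96.4, 91.3, 104.0 and 56.0 CPM in control. Low-protein livers were above all controls, and in high-protein livers only replicate 4 was within the control range. Its log2 fold change was 0.35 on high protein, 0.50 on low protein and 0.06 on low fat (SE 0.18 each), and without control 4 it was 0.18, 0.32 and -0.13. Creb3l3, a liver transcription factor that acts with PPAR-alpha in fasting, was at 418.3, 360.0, 443.8 and 511.3 CPM with high protein against 292.1, 361.3, 266.3 and 244.8 CPM in control. High protein 2 was just below control 2, and the other high-protein livers were above all controls. Creb3l3 had a log2 fold change of 0.57 on high protein, 0.36 on low protein and 0.25 on low fat (SE 0.15 each). Without control 4 these values of Creb3l3 were 0.49, 0.27 and 0.15.

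Ppargc1a, the coactivator PGC-1 alpha, was at 59.4, 30.7, 24.2 and 56.1 CPM on high protein, 11.7, 17.6, 9.08 and 13.1 CPM on low protein and 13.7, 18.1, 11.8 and 33.3 CPM on low fat. The controls held 14.5, 24.8, 27.9 and 148.3 CPM of Ppargc1a. Control 4 was several-fold above the rest, and all high-protein livers lay above all low-protein livers. For Ppargc1a the log2 fold change was -0.34 (SE 0.58) with high protein, and 0.92 without control 4. High protein exceeded low protein by 1.73 on the log2 scale (SE 0.60, unadjusted p = 0.011, adjusted p = 0.921 in edgeR). The coactivator Lpin1 was at 438 to 1114 CPM on high protein, 33.7 to 491 CPM on low protein, 71.1 to 538 CPM on low fat and 198 to 599 CPM in controls 1 to 3, while control 4 stood apart at 3886 CPM. Fgf21, the liver hormone of fasting and of low protein intake, was low in all libraries, at 1.05 ± 1.00 CPM on high protein, 2.17 ± 1.55 CPM on low protein, 3.04 ± 3.00 CPM on low fat and 0.522 ± 0.546 CPM in control (SD, n = 4 each).

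The counts over other targets of PPAR-alpha rested on control 4. With high protein 9 of 13 were above control, at a median of 0.14, and with low protein and low fat it was 6 and 5 of 13, at medians of -0.27 and -0.15. Without control 4 the counts were 13 of 13 on high protein, 12 on low protein and 13 on low fat, at medians of 0.34, 0.36 and 0.63. Vnn1, a pantetheinase, was at 21.4, 23.9, 32.0 and 40.0 CPM on high protein, 45.5, 48.3, 26.1 and 40.3 CPM on low protein and 37.3, 42.8, 30.2 and 37.7 CPM on low fat. The controls held 21.9, 17.9, 29.4 and 11.0 CPM of Vnn1, below every low-fat liver and overlapping the other diets. Its log2 fold changes were 0.55 on high protein, 1.00 on low protein and 0.88 on low fat (SE 0.27 each), and 0.34, 0.78 and 0.65 without control 4. Plin2, a coat protein of lipid droplets, was at 0.39 (SE 0.39) on high protein, 1.08 (SE 0.40) on low protein and 1.08 (SE 0.40) on low fat, and without control 4 at 0.07, 0.75 and 0.74. Ehhadh, the peroxisomal bifunctional enzyme, was at 0.37 (SE 0.19) with high protein, where it averaged 419 ± 65.9 CPM against 324 ± 34.2 CPM in control (SD, n = 4 each). The microsomal hydroxylase Cyp4a14 and the kinase Pdk4 reached at most 2075 CPM and 34.2 CPM in 15 libraries, and 3416 CPM and 65.5 CPM in control 4. The log2 fold change of Cyp4a14 was -0.15 on high protein, -1.47 on low protein and -1.38 on low fat, and without control 4 it was 1.97, 0.64 and 0.72. That of Pdk4 was -0.60, -1.31 and -0.15 in the same order, and without control 4 it was 1.29, 0.57 and 1.72.

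**Figure D5:**
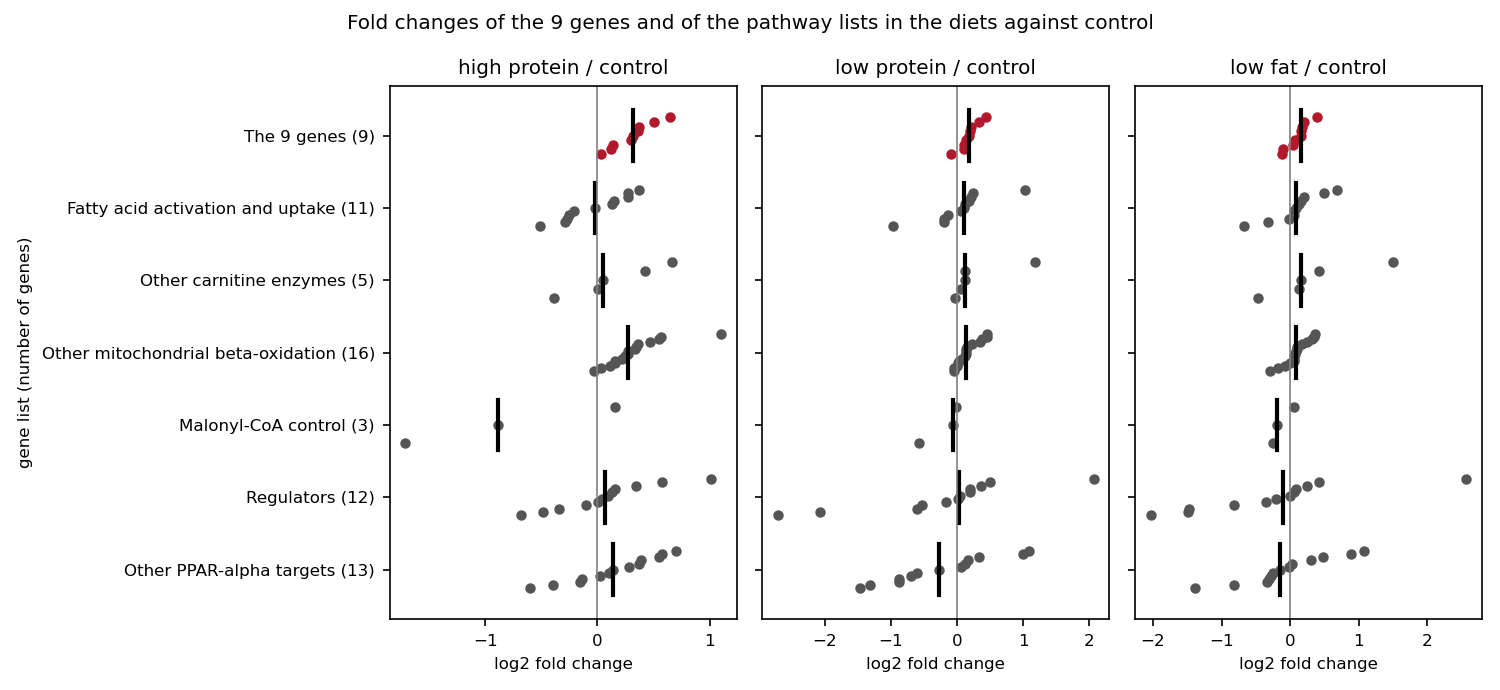
Log2 fold change of each of the 9 genes (red) and of the genes of 6 pathway lists (grey) for the 3 altered diets against control, with black lines at the medians. The 9 genes and the other beta-oxidation genes lie mostly above 0 in all 3 panels, where all 16 libraries are used, with medians of 0.32 and 0.27 for high protein, while the malonyl-CoA genes have a median of -0.88 there.

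The genes most like the mean pattern of the 9 over the 16 libraries were Acad11, Hsd17b4, Suclg1, Etfa and Hexa. They were ranked among 3909 other protein-coding genes by the root mean square difference of centred log2 levels, which was 0.0944 for Acad11, 0.101 for Hsd17b4, 0.102 for Suclg1, 0.107 for Etfa and 0.112 for Hexa. The median over the genes ranked was 0.269, and a gene with no variation at all would score 0.155. Acad11 is a peroxisomal or mitochondrial acyl-CoA dehydrogenase, Hsd17b4 the peroxisomal bifunctional enzyme of branched chains, Suclg1 a subunit of succinyl-CoA ligase, Etfa a subunit of the electron transfer flavoprotein and Hexa a subunit of lysosomal hexosaminidase. Etfa passes electrons to Etfdh, and averaged 318 ± 19.6 CPM with high protein and 285 ± 18.2 CPM in control (SD, n = 4 each), with overlapping libraries. The other subunit, Etfb, averaged 45.9 ± 11.9 CPM with high protein and 35.8 ± 5.54 CPM in control, also with overlap. The libraries share their depth scaling, and the score is a description with no test.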

How the data were processed

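The authors deposited raw read counts per gene, whole numbers for all 16 livers in 1 table that also lists exon lengths and positions. The submitters' processing notes name the build GRCm38.p6 and the tools STAR 2.7.0f, Trimmomatic 0.39, Subread 1.6.4, featureCounts and edgeR 3.32.1. Which annotation release and which strand setting they used is not given in the sources used here. Libraries were made with a directional kit, per the labels' protocols. Groups come from the sample titles. Of 54752 genes, 54723 received a symbol from GENCODE M21 by identifier without version.

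The 17833 genes that passed filterByExpr on the group, all 9 described genes among them, were scaled with TMM factors in edgeR 4.0.16 (R 4.3.3). A quasi-likelihood model took 1 mean per diet and left 12 residual degrees of freedom. Tests of the 6 pairs were two-sided, with Benjamini-Hochberg adjustment over all genes tested at 0.05. Steps were tested on simulated data for high protein against control. There 4 of 50 genes changed 1.5-fold passed the adjusted test, 20 of 50 changed 2-fold and 40 of 50 changed 4-fold. Among the 17467 genes of that simulation, 5 that had not been changed also passed. All simulated libraries shared the same spread per gene, so none was set apart as control 4 is in the data. CPM uses TMM-scaled library sizes, and log2 levels use a prior count of 2. FPKM divides CPM by exon length. Library totals of 35243594 to 112789127 counts leave a counting error below 2% in every value of the 9 genes. Pairs of replicates differed by more than sampling noise, so no library was counted as a copy. Over genes in general, the chi-square per degree of freedom between control 4 and controls 1, 2 and 3 was 595, 549 and 666. The highest value of any other pair within a diet was 149, between controls 1 and 3.

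The 9 genes, the pathway and marker lists and the tests were chosen with earlier results of these data known. From each pathway list the text names the 3 genes with the smallest p for any difference among the 4 diets, and any gene whose role is described. The list of ketone genes is not reported here as a whole. The 5 genes of like pattern were ranked among genes with a mean log2 CPM of at least 5. Other settings tried were DESeq2 1.42.0, upper-quartile and RLE factors, limma-voom (limma 3.58.1) with sample quality weights, a filter of over 1 CPM in 4 libraries or none, the groups compared alone, a replicate block, the kidney level as a covariate, each library left out, and control 3, control 4 and high protein 1 left out together.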

Additional observations from a re-analysis of the deposited data

Results flagged for a closer look

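Within groups of 4 livers, 36 in all (9 genes in 4 diets), 2 held a library farther from the others than Dixon's 95% critical value, judged by its gap to the nearest library over the group's range. Chance alone gives about 1 in 20 groups. Cpt1a in control 4 was at 565.3 CPM, with a gap over range of 0.856, above the other 3 controls, and the high-protein difference without that library was 0.53 on the log2 scale. Hadhb in low fat 3 was at 195.1 CPM, with a gap over range of 0.882, below the other 3 low-fat livers, and it was within the range of the controls.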

How the results depend on the processing

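Over 100 gene comparisons, 1758 of 1800 alternative values kept the direction and the side of the threshold. In 41 the direction turned, in 15 comparisons, and 1 passed the threshold: Acacb between high protein and low fat, with the groups compared alone. None of the 9 genes passed an adjusted p of 0.05 in any alternative. Leaving out 1 library moved the log2 value by over 1.5 times in 60 of the 100, among them 33 without control 4. Among all genes, DESeq2 called 1 (high protein), 10 (low protein) and 4 (low fat) against control, 25 between high and low protein, 81 between high protein and low fat and 79 for any difference. Between high protein and low fat, 16 were called with the groups compared alone and 1 with limma-voom. Without control 3, control 4 and high protein 1 together, 625 were called between low fat and control and 298 for any difference. With 1 library left out, calls ran from 0 to 109 for low fat against control, 0 to 2 for high against low protein, 0 to 1 for high protein against low fat and 0 to 1 for any difference. The highest counts came without control 3 for low fat against control and without high protein 3 for the others. Of the 9 genes, 4 lay below in low fat against low protein with limma-voom, and 5 to 9 with 1 library left out.

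Log2 fold changes that turned against control with high protein were those of Slc27a5 (0.0395 with upper-quartile factors, 0.0135 with limma-voom) and Ppargc1a (0.87 with limma-voom, 0.0531 with the replicate block, 0.91 without the 3 libraries). In the low-protein comparison it was Acadvl (0.0159 with limma-voom, 0.028 without the 3 libraries). With low fat and limma-voom the values were 0.0558 for Cpt1a, 0.037 for Acadvl, 0.13 for Acacb and -0.0523 for Ppara. Without the 3 libraries they were 0.0531 for Cpt1a, 0.0218 for Acadvl, -0.0151 for Hadhb, -0.0474 for Bdh1, 0.11 for Acacb and -0.0555 for Ppara. Etfdh was then 0.0071 above low protein and 0.0329 above low fat with high protein. With 1 library left out, high protein against control ran from -0.0238 to 0.20 for Acadvl, -0.43 to 0.0123 for Acsl4, -0.13 to 0.14 for Slc27a5, -0.004 to 0.76 for Slc22a5 and -0.62 to 0.92 for Ppargc1a. For Acadvl the low-protein comparison ran from -0.16 to 0.0675 and the low-fat one from -0.16 to 0.0506. Low fat ran from -0.19 to 0.0197 for Cpt1a, -0.0124 to 0.57 for Bdh1 and -0.13 to 0.16 for Ppara. High protein against low protein ran from -0.0753 to 0.0624 for Acadm and -0.11 to 0.0661 for Etfdh, and against low fat from -0.0683 to 0.0391 for Etfdh. The causes were not tested.

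Between same-numbered libraries, 8 of 24 correlations of their deviations from the group means were over 0.1, with a range of -0.201 to 0.301. Differently numbered libraries were not compared, so these values cannot show whether replicate numbers pair the samples. With the replicate block 0 genes were called in each comparison, as without it. Depth limits none of the 9 genes.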
